A study of Mus musculus with 27 samples.

Results

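The comparison of Dex with Con liver covers 18 of the 27 mice of the series, 9 labelled Dex and 9 labelled Con, chosen by their labels alone. The third group of 9, Veh, entered the fit to estimate the spread of each probe set. Its arrays also counted in choosing the tested probe sets and in the processing described at the end. Veh means are given for some genes only. A change given without one may also be present in Veh against Con. Liver RNA of 1 mouse was hybridised to each Affymetrix array. The labels do not spell out Dex, Con or Veh, and the sources used here give no sex, strain, age, dose or time, so these groups are known only by their names. Nothing in the labels ties mice of different groups to each other.

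The liver makes most plasma proteins, clears drugs through cytochrome P450 enzymes, and adjusts fuel use to hormones. The nuclear receptors CAR, PXR and PPARA switch on Cyp2b, Cyp3a and Cyp4a genes when they meet drugs or fatty acids. Glucocorticoids act through their own nuclear receptor and induce enzymes of amino acid breakdown such as Tat and Tdo2. Growth hormone pulses set the sex-biased steroid enzymes of mouse liver, and cytokines drive the acute phase proteins.

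The livers carried the defining RNAs of hepatocytes. Of 12 hepatocyte markers, 9 were on the array and all 9 were tested, with mean log2 intensities from 7.53 to 14.4 for Alb, the gene of albumin. Array quality did not pass the test between the groups. The beta-actin 3' to 5' log2 ratio, which grows as RNA is degraded, was 0.886 ± 0.169 in Dex and 0.947 ± 0.243 in Con (SD, n = 9 each, two-sided exact permutation test, adjusted p = 0.721). The Gapdh ratio was 0.237 ± 0.157 in Dex and 0.354 ± 0.116 in Con (exact adjusted p = 0.278), and the median array intensity was 24.8 ± 5.36 in Dex and 28.2 ± 3.75 in Con (exact adjusted p = 0.278). Dex livers resembled each other less than Con livers did. The median standard deviation of a probe set was 0.566 in Dex and 0.375 in Con (log2), and it was larger in Dex for 80.5% of the tested probe sets.

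Dex mice 1, 2 and 3 stood apart from the other 6 Dex mice. Their mean log2 intensity over 28 tested glucocorticoid receptor targets, minus the Con mean, was 1.77, 1.84 and 1.98. The other 6 Dex mice lay between -0.243 and 0.462 and the 9 Con mice between -0.564 and 0.638, so these 6 overlapped Con. What set the 3 mice apart is not in the labels. For most named genes whose call was lost when these 3 mice were left out, this is given beside the gene. That fit has only 6 Dex mice, so a call can be lost while the change keeps its size. Over all 6784 tested probe sets it called 89 higher and 316 lower.

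Of 6784 tested probe sets, 1115 (16.4%) differed between Dex and Con at a limma adjusted p under 0.05, with 221 (3.26%) higher in Dex and 894 (13.2%) lower. An unadjusted p under 0.05 was reached by 2138. In terms of genes, 880 of 5200 (16.9%) were called, 161 higher (3.1%) and 719 lower (13.8%), with each gene represented by its brightest probe set. The median change over all tested genes was -0.207 on the log2 scale, so most genes lay slightly lower in Dex before any call was made. With quantile normalization, which gives every array the same distribution, that median was -0.05, the share of higher calls among all calls was 29.9% against 19.8% as deposited, and 662 probe sets (9.76%) were called, 198 higher (2.92%) and 464 lower (6.84%). With all 12422 non-control probe sets tested, 842 (6.78%) were called. After the median of each array was subtracted, 158 were higher and 307 lower, and 34% of the calls were higher. The other contrasts of the fit, which share arrays with this one, gave 18 calls (0.265%) for Dex against Veh and 262 (3.86%) for Veh against Con. Of these, 3 were higher and 15 lower in Dex than in Veh, and 81 were higher and 181 lower in Veh than in Con. The median change over all tested genes was -0.0463 for Dex against Veh and -0.183 for Veh against Con. Much of the lower median in Dex was thus also present in Veh.

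**Figure D1:**
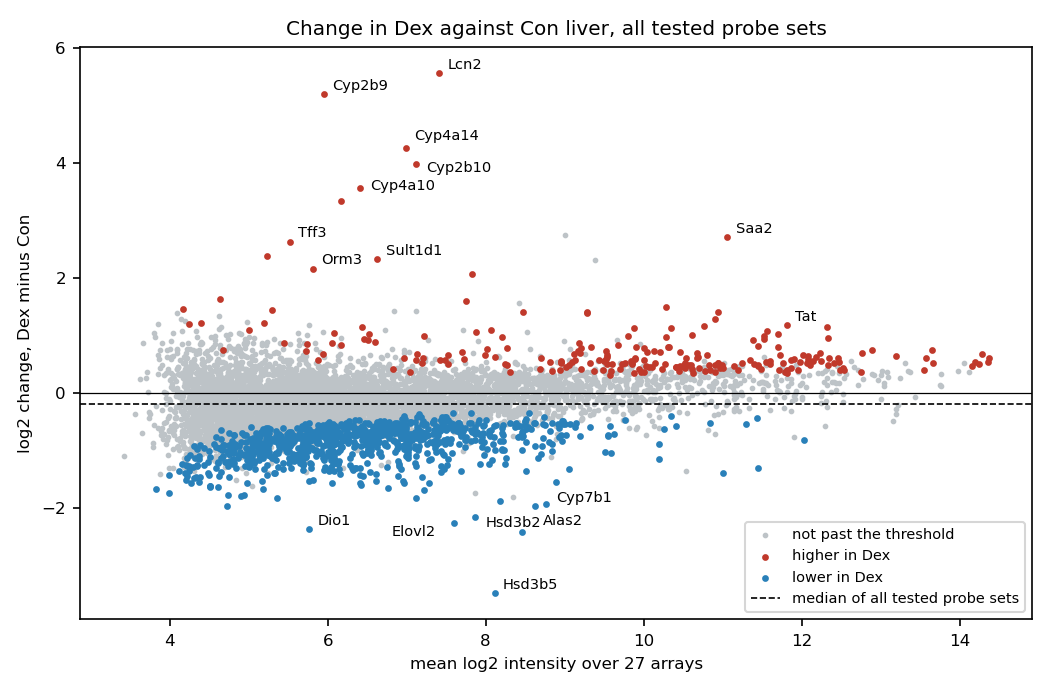
Log2 change, Dex minus Con, against the mean log2 intensity over 27 arrays, with 1 point per tested probe set. Of the 1115 coloured points, 221 lie above zero and 894 below, and the dashed median lies at -0.199.

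The higher calls were more frequent among bright probe sets. Among the 2261 brightest of the tested probe sets 192 were higher and 287 lower, whereas among the 2262 dimmest 9 were higher and 206 lower. With quantile normalization these counts were 118 and 215 among the brightest, and 28 and 89 among the dimmest. Called genes had 175 further tested probe sets, of which 149 changed in the same direction, 44 were also called that way and 2 were called the opposite way.

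Among the genes that rose most were P450 enzymes that clear drugs and fatty acids. Cyp2b10, the classic target of the receptor CAR, had log2 intensities of 6.85 to 12.34 in Dex (median 8.49) and 4.55 to 6.61 in Con (median 5.07). The lowest Dex mouse lay above the highest Con mouse. The change was 3.98 ± 0.69 (SE, limma adjusted p = 0.000567), or 15.8-fold. Dex 1, 2 and 3 had 12.34, 11.80 and 12.30, and without them the change was 2.57 (limma adjusted p = 0.00803).

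Cyp2b9, a related enzyme that female mouse liver expresses more than male liver, ran from 4.50 to 11.23 in Dex (median 6.65) and from the floor of 1.38 to 4.34 in Con (median 1.81). The groups did not overlap, and 2 of 9 Con mice were at the floor. It rose by 5.19 ± 1.04 (SE, limma adjusted p = 0.00183). It was above the array median in 0 of 9 Con arrays, so the size of this rise rests on weak Con signals and on the floor. Its mean was 7.39 in Dex and 8.25 in Veh, while that of Cyp2b10 was 9.32 in Dex and 6.69 in Veh.

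The fatty acid hydroxylases Cyp4a14 and Cyp4a10, targets of PPARA, rose together. Their means were 8.80 and 7.73 in Dex and 7.63 and 7.31 in Veh. Both also rose in Veh against Con, by 3.09 and 3.14 (limma adjusted p = 0.00674 and 0.002). Neither passed in Dex against Veh (limma adjusted p = 0.354 and 0.734). Cyp4a14 lay between 6.82 and 10.59 in Dex (median 8.61) and between 1.93 and 7.02 in Con (median 4.45), and 8 of 9 Dex mice exceeded the highest Con mouse. It rose by 4.26 ± 0.61 (SE, limma adjusted p = 0.000198), and was above the array median in 2 of 9 Con arrays, as Cyp4a10 was in 1. Cyp4a10 rose by 3.56 ± 0.54 (limma adjusted p = 0.000222), with means of 7.73 ± 1.27 in Dex and 4.17 ± 1.21 in Con (SD, n = 9 each). The name of its probe set carries the letter f, with which Affymetrix marks sets that can bind several members of a gene family, so closely related Cyp4a transcripts may add to it. The same mark is on the sets of Cyp2c38, Cyp7b1, Hsd3b6, Gstm1, Gstm3, Saa2, Igfbp1, Serpina1c, C1ra, Rpl41, Plg and Defa35.

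Of 16 tested PXR and CAR targets, 6 rose (37.5%, against 3.1% of all tested genes) and 2 fell (12.5%, near the 13.8% of all), with a median of 0.15. Beside the Cyp2b pair, Cyp2c39 rose by 1.49 and Cyp2c38 by 1.29, and the lowest Dex value of Cyp2c38, 10.73, was above the highest Con value, 10.64. The means of Cyp2c39 and Cyp2c38 were 10.77 and 11.43 in Dex and 10.79 and 11.15 in Veh. Cyp3a11, the main drug-clearing enzyme that PXR controls, rose by 0.52 ± 0.15 (SE, limma adjusted p = 0.0214), with means of 12.66 ± 0.22 in Dex and 12.14 ± 0.46 in Con (SD, n = 9 each). It did not pass with quantile normalization (adjusted p = 0.257) or without Dex 1 to 3 (0.52, adjusted p = 0.0664). Nr1i3, the gene of CAR itself, rose by 0.73, a second probe set rose by 0.55 and the dimmest changed by -0.16 (limma adjusted p = 0.0171, 0.0276 and 0.605). The members that fell were Cyp3a25, by 1.03, and Abcc2, the pump that exports conjugates into bile, which ran from 4.24 to 6.37 in Dex and from 6.47 to 7.24 in Con without overlap. Cyp3a25 did not pass without Dex 1 to 3 (adjusted p = 0.0676). With Dex 1 to 3 left out, 4 members rose and 1 fell.

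Of 23 tested PPARA targets and fatty acid oxidation genes, 4 rose (17.4%, against 3.1% of all) and 2 fell (8.7%, against 13.8%). The median was 0.02. The rises were the Cyp4a pair, Acot1 and Ech1. Ech1, an isomerase of fatty acid oxidation, rose by 0.45 (limma adjusted p = 0.0469), and did not pass with quantile normalization (0.298) or without Dex 1 to 3 (0.16), and passed in 11 of the 27 sets (up to 0.109 without Dex 1). The thioesterase gene Acot1 rose by 1.15 ± 0.34 (limma adjusted p = 0.0234), with 2 of the 27 sets that leave out 1 array giving an adjusted p up to 0.0558 (without Dex 1), and with 0.202 without Dex 1 to 3. Acadl, a long-chain acyl-CoA dehydrogenase, fell by 1.45 ± 0.31 (limma adjusted p = 0.00288), with means of 5.74 ± 0.86 in Dex and 7.18 ± 0.72 in Con (SD, n = 9 each). Decr1, which helps to oxidise unsaturated fatty acids, fell by 0.76 and did not pass with quantile normalization (adjusted p = 0.0728), without Dex 1 to 3 (0.0935) or in 4 of the 27 sets (up to 0.0577 without Dex 2).

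**Figure D2:**
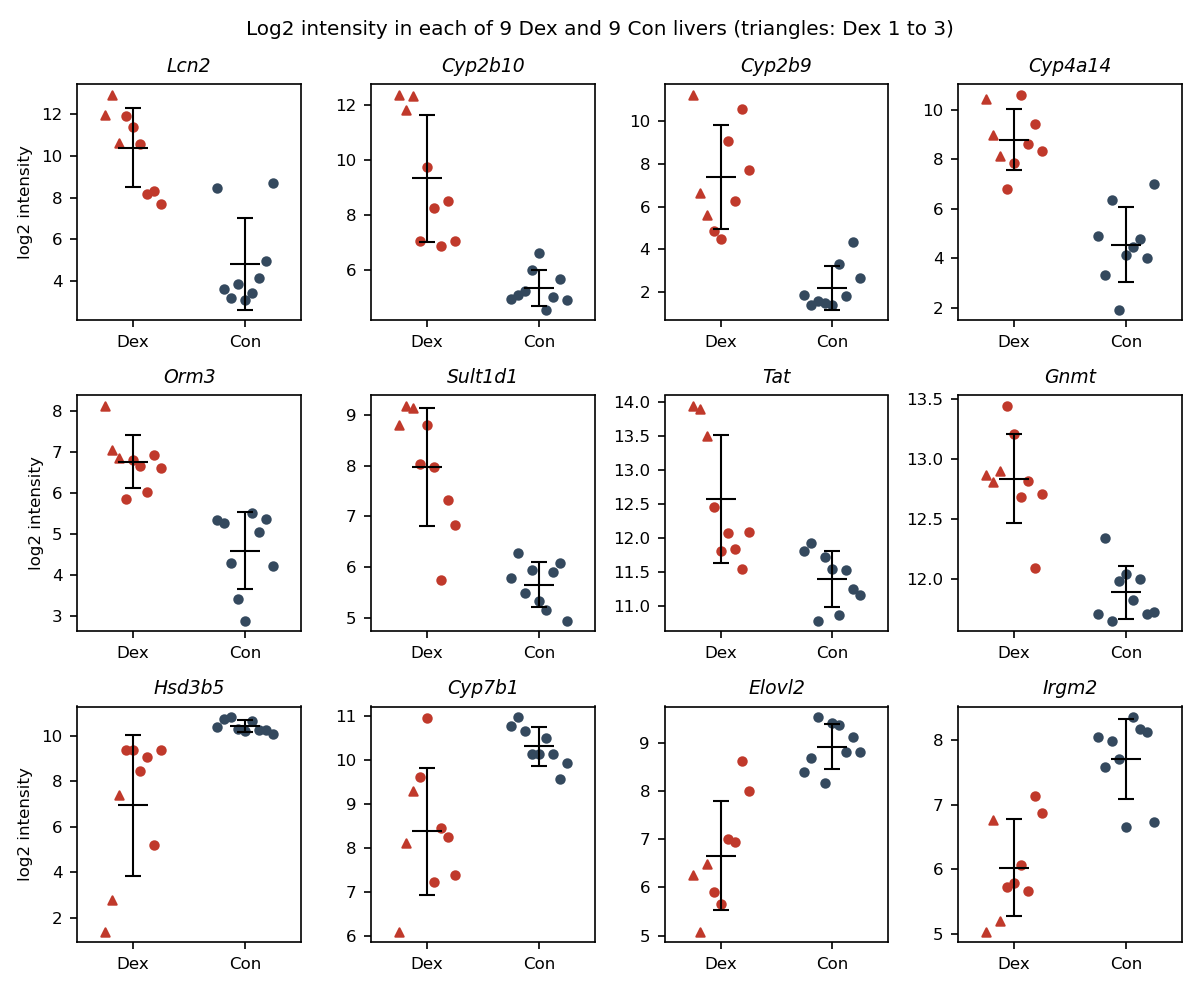
Log2 intensity of 12 genes in each of 9 Dex and 9 Con livers, with the bar and whiskers at the mean and SD. Cyp2b10, Cyp2b9, Orm3 and Hsd3b5 do not overlap between the groups, and the triangles of Dex 1 to 3 lie at the top for Cyp2b10 and Tat.

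Several steroid-handling enzymes fell in Dex. Hsd3b5, a 3-ketosteroid reductase that is abundant in male mouse liver, had log2 intensities of 1.38 to 9.40 in Dex (median 8.46) and 10.07 to 10.83 in Con (median 10.33). All 9 Dex mice lay below the lowest Con mouse, and Dex 1, 2 and 8 were lowest, at 1.38, 2.79 and 5.20. It fell by 3.48 ± 1.11 (SE, limma adjusted p = 0.0321). The call was lost in 2 of the 27 sets that leave out 1 array (adjusted p up to 0.0766 without Dex 1), and without Dex 1 to 3 the change was -1.94 (adjusted p = 0.249). Its mean was 6.94 in Dex and 6.98 in Veh.

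Related enzymes fell in the same comparison. Hsd3b2 fell by 2.16 ± 0.63 (limma adjusted p = 0.0203) and Hsd3b6 by 1.51 ± 0.43 (limma adjusted p = 0.0172), and neither passed without Dex 1 to 3 (adjusted p = 0.20 and 0.166). Cyp7b1, an oxysterol hydroxylase of bile acid synthesis that male liver expresses more, ran from 6.09 to 10.95 in Dex (median 8.25) and from 9.57 to 10.97 in Con (median 10.13), with 7 of 9 Dex mice below the lowest Con mouse. It fell by 1.93 ± 0.58 (limma adjusted p = 0.0223), and its second probe set fell by 2.42 (limma adjusted p = 0.00338). The first set missed the threshold without Dex 1 (adjusted p = 0.0529) and without Dex 1 to 3 (0.0962). Its mean was 8.38 in Dex and 7.60 in Veh.

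Ghr, the growth hormone receptor, fell by 0.76 ± 0.22 (limma adjusted p = 0.0201) and its second probe set by 1.02 (limma adjusted p = 0.0215), and the first did not pass without Dex 1 to 3 (adjusted p = 0.0837). Of 22 tested genes of the sex-biased steroid and growth hormone list, 2 rose (9.09%, against 3.1% of all) and 6 fell (27.3%, against 13.8%). The median was -0.26. The rises were Cyp2b9 and Igfbp1. In the fit without Dex 1 to 3, 1 member of the list passed, a rise. Egfr, the receptor of epidermal growth factor, lay below every Con mouse in all 9 Dex mice, at 3.0 to 9.23 in Dex and at 9.30 or more in Con, but did not pass (-1.81 ± 0.73, limma adjusted p = 0.0837). Without Dex 1 to 3 its change was -1.30 (adjusted p = 0.23), and further probe sets changed by -1.73 and -1.20 (adjusted p = 0.0725 and 0.109).

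The acute phase proteins, which the liver secretes during inflammation, rose in part. Of 25 tested members, 6 rose (24%, against 3.1% of all tested genes), with a median of 0.43. None fell in the limma fit, and at an unadjusted p under 0.05, 11 rose and 0 fell. Lcn2, the iron-siderophore binding protein lipocalin 2, lay between 7.70 and 12.91 in Dex (median 10.60) and between 3.09 and 8.69 in Con (median 3.85). Con 1 and Con 9, at 8.46 and 8.69, reached into the Dex range. It rose by 5.57 ± 0.97 (SE, limma adjusted p = 0.000595), while a second and dimmer probe set changed by 0.04 (adjusted p = 0.929). Lcn2 was above the array median in 3 of 9 Con arrays, so the size of its rise also rests on weak Con signals.

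Orm3, an orosomucoid gene, ran from 5.84 to 8.11 in Dex (median 6.80) and from 2.89 to 5.52 in Con (median 5.06), so the groups did not overlap. It rose by 2.16 ± 0.34 (limma adjusted p = 0.000309). Its mean was 6.76 in Dex and 6.07 in Veh. The serum amyloid genes Saa2 and Saa3 rose by 2.71 and 2.07, and their ranges overlapped. Saa2 was at 10.96 to 14.48 in Dex and 7.76 to 12.93 in Con, and did not pass without Dex 1 to 3 (2.58, adjusted p = 0.0736). Its second probe set changed by 1.57 (adjusted p = 0.115).

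The protease inhibitor Serpina3n rose by 1.07 and the haemoglobin binder Hp by 0.75 (limma adjusted p = 0.0118 and 0.0165). Neither passed without Dex 1 to 3 (adjusted p = 0.128 and 0.101), and Hp did not pass with quantile normalization (0.0882). Among the acute phase genes 3 rose and 1 fell without Dex 1 to 3, and the median was 0.02. With quantile normalization 5 rose and 2 fell.

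Most rises among glucocorticoid receptor targets rested on 3 mice. Of 28 tested members, 5 rose (17.9%, against 3.1% of all tested genes) and 1 fell (3.57%, against 13.8%), with a median of 0.33. Leaving out Dex 1 to 3 gave 1 rise and 1 fall, and the median was -0.26. These mice had the highest scores on this same list, so a lower count and median without them are built in. Lcn2, described among the acute phase genes, is also on this list. Tat, tyrosine aminotransferase, ran from 11.54 to 13.94 in Dex (median 12.09) and from 10.78 to 11.93 in Con (median 11.53). It rose by 1.18 ± 0.28 (limma adjusted p = 0.00705), and by 0.57 without Dex 1 to 3, where it did not pass (adjusted p = 0.0802).

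Tdo2, which opens tryptophan breakdown, was at 14.25, 14.47 and 14.22 in Dex 1 to 3, at 12.46 to 13.09 in the other Dex mice and at 12.27 to 12.91 in Con. It rose by 0.70 ± 0.23 (limma adjusted p = 0.0371). It did not pass with quantile normalization (adjusted p = 0.302), without Dex 1 to 3 (0.478) or in 8 of the 27 sets (up to 0.0885 without Dex 2), and its second probe set changed by 0.35 (adjusted p = 0.538). Ddit4, an inhibitor of mTOR signalling, rose by 1.63 (limma adjusted p = 0.0426), and did not pass in 8 sets (up to 0.102 without Dex 1) or without Dex 1 to 3 (0.40). Its signal was above the array median in 8 of 9 Dex arrays and 2 of 9 Con arrays.

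Igfbp1, a binding protein of insulin-like growth factors, was at 9.83 in Dex 1, 12.01 in Dex 2 and 6.71 in Dex 3, at 4.08 to 5.04 in the other Dex mice and at 1.38 to 5.57 in Con. Its rise of 2.39 ± 0.83 (limma adjusted p = 0.0469) passed in 12 of the 27 sets (adjusted p up to 0.109 without Dex 1) and was 0.75 without Dex 1 to 3 (adjusted p = 0.444). Fkbp5, a chaperone of steroid receptors, was at 11.53, 11.11 and 10.90 in Dex 1 to 3, at 5.88 to 7.34 in the other Dex mice and at 5.43 to 8.13 in Con. It did not pass (1.43 ± 0.65, limma adjusted p = 0.126), and without those 3 mice its change was -0.03.

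Other members did not pass, and some were high in the same mice. The metallothionein genes Mt1 and Mt2, whose products bind zinc and copper, changed by 2.74 and 2.32 (limma adjusted p = 0.10 and 0.105). Both were high in Dex 1 to 3, and Mt1 ran from 3.97 to 12.23 among Con mice. Per1, a clock gene, changed by 0.52 (adjusted p = 0.517), and Pck1, the first committed enzyme of glucose synthesis, by -0.40 (adjusted p = 0.574). Tsc22d1 was the member that fell, by 1.04 ± 0.29 (limma adjusted p = 0.0159), and it did not pass with quantile normalization (adjusted p = 0.0503) or without Dex 1 to 3 (0.148).

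**Figure D3:**
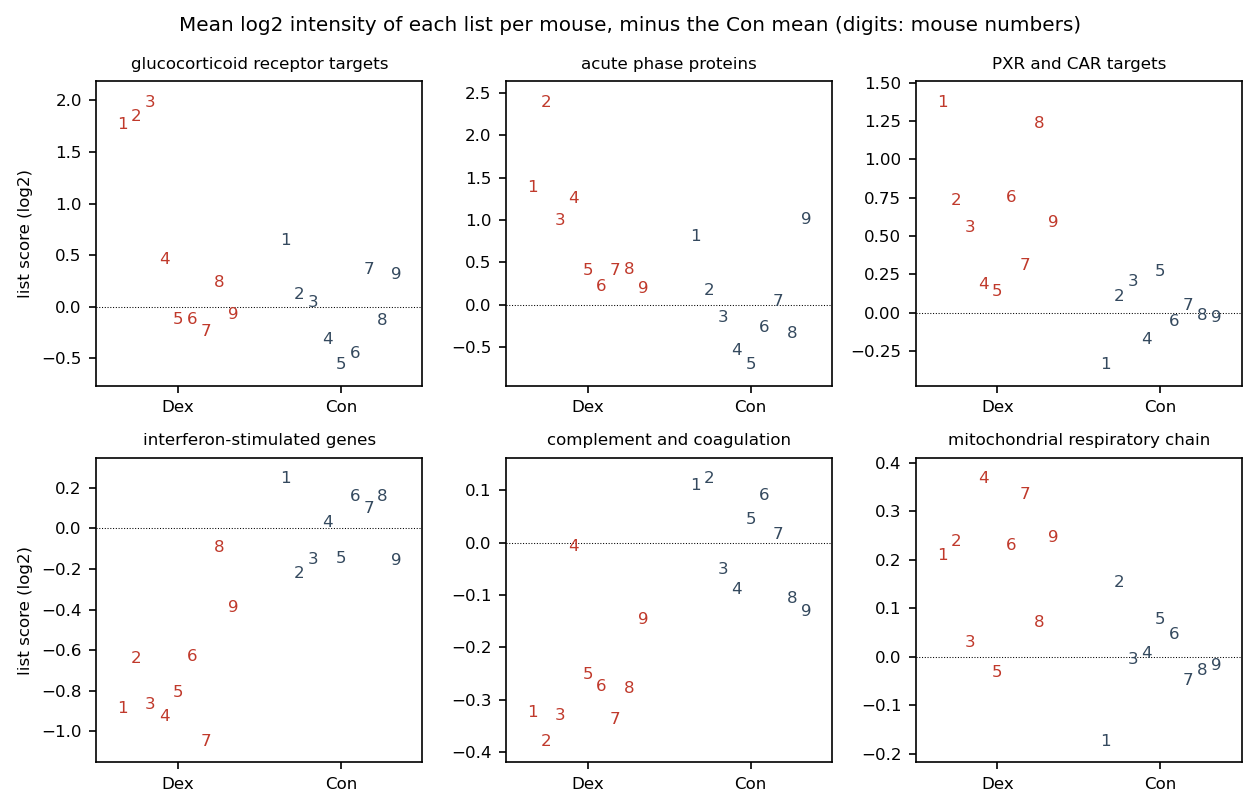
Mean log2 intensity of 6 gene lists in each mouse, minus the Con mean, with digits for mouse numbers. Dex 1, 2 and 3 lie at 1.77 to 1.98 for glucocorticoid receptor targets, while for interferon-stimulated genes 8 of 9 Dex mice lie at -0.392 or lower.

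Enzymes of amino acid breakdown and the urea cycle changed in both directions. Of 25 tested members, 7 rose (28%, against 3.1% of all tested genes) and 4 fell (16%, near the 13.8% of all), with a median of 0.20. Gnmt, which uses up methyl groups of S-adenosylmethionine by methylating glycine, ran from 12.09 to 13.44 in Dex (median 12.82) and from 11.65 to 12.34 in Con (median 11.82). In 8 of 9 Dex mice it was above the highest Con mouse. It rose by 0.95 ± 0.14 (limma adjusted p = 0.000198), and by 0.94 without Dex 1 to 3 (adjusted p = 0.00398).

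Bhmt, which remakes methionine from homocysteine, rose by 1.15 ± 0.27 (limma adjusted p = 0.00572), while its dimmer second probe set changed by -0.23 (adjusted p = 0.606). Cps1, the entry enzyme of the urea cycle, rose by 0.75 and did not pass without Dex 1 to 3 (adjusted p = 0.0676). Falls were those of Gatm, which makes the precursor of creatine (-1.02), the glutamate dehydrogenase gene Glud1 (-0.72), Bckdhb of branched-chain amino acid breakdown (-0.54) and Otc, the next urea cycle step after Cps1 (-0.40). Gatm, Bckdhb and Otc did not pass without Dex 1 to 3 (adjusted p = 0.09, 0.0574 and 0.207), and Otc passed in 16 of the 27 sets (up to 0.0856 without Dex 5). Without those mice 2 members of the list rose and 1 fell.

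Of the interferon-stimulated genes, 4 fell in Dex. Their promoters are shown because interferon acts through motifs near the start of such genes. They are from RefSeq on GRCm38.p6, 250 bases before to 50 after the start, written 5' to 3' on the strand of the gene. Capitals mark GAAA, then any 2 bases, then GAAA, which spells the core of the interferon-stimulated response element and was searched on both strands, with overlapping matches allowed.
Irgm2 promoter, chr11:58214727-58215026 (plus strand): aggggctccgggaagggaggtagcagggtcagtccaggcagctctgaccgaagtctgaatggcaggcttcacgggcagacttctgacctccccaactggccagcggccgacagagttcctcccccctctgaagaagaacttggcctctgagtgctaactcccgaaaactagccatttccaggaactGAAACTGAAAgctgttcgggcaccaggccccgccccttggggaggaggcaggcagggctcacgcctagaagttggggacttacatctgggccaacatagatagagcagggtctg
Irf9 promoter, chr14:55603735-55604034 (plus strand): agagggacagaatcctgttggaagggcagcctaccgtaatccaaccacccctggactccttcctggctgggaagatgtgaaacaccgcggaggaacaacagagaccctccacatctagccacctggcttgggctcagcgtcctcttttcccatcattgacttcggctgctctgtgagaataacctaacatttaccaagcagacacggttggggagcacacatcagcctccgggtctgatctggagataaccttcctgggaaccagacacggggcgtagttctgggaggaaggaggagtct
Ifi47 promoter, chr11:49076337-49076636 (plus strand): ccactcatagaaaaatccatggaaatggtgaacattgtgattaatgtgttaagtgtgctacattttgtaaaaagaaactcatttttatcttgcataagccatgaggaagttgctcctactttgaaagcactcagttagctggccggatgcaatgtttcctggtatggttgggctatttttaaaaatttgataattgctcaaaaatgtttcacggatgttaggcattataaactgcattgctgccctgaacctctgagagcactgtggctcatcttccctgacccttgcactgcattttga
Isg15 promoter, chr4:156200769-156201068 (minus strand): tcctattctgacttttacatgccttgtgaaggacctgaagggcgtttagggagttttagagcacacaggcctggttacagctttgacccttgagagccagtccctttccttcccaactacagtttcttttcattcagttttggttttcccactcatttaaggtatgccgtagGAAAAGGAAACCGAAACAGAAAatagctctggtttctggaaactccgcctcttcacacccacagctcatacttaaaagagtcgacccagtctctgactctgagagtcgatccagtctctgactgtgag
The motif occurred in 3 overlapping copies in Isg15, starting at -78, -72 and -66 relative to the gene start, and once in Irgm2, at -64. These letters were not in the windows of Irf9 and Ifi47. Over all promoters they were in 3.44% of 32851 windows of the same length, or 3.99% of 27025 genes, and in 6 of 16 tested list members with a window. A match describes the sequence and is not a site.

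Of 18 tested interferon-stimulated genes, 4 fell (22.2%, against 13.8% of all tested genes), 17 of 18 had a negative change, and the median was -0.57 against -0.21 for all tested genes. None rose in the limma fit, and at an unadjusted p under 0.05, 9 fell and 0 rose. Of all 6784 tested probe sets 2138 reached such a p in either direction, and 32.1% of all tested genes had a positive change. Irgm2, an immunity-related GTPase, ran from 5.03 to 7.13 in Dex (median 5.78) and from 6.66 to 8.36 in Con (median 7.99), and 6 of 9 Dex mice lay below the lowest Con mouse. It fell by 1.69 ± 0.45 (limma adjusted p = 0.0125). Irf9, the DNA-binding part of the interferon-activated factor ISGF3, fell by 1.57 ± 0.43 (limma adjusted p = 0.0137), with means of 5.50 ± 1.18 in Dex and 7.07 ± 0.99 in Con (SD, n = 9 each).

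Isg15, a ubiquitin-like modifier, ran from 3.19 to 6.33 in Dex (median 5.13) and from 5.04 to 6.70 in Con (median 6.19), and fell by 1.02 ± 0.36 (limma adjusted p = 0.0466). Ifi47, another GTPase, fell by 1.32 ± 0.46 (limma adjusted p = 0.0477). These 2 calls were at the edge of the threshold. Isg15 passed in 13 of the 27 sets that leave out 1 array (adjusted p up to 0.0911 without Dex 3) and Ifi47 in 9 (up to 0.102 without Dex 7), and neither passed with quantile normalization (adjusted p = 0.143 and 0.113). None of the 4 passed without Dex 1 to 3, with adjusted p from 0.0676 for Irgm2 to 0.213 for Isg15, while 1 other list member did. Igtp, also a GTPase of this family, changed by -1.25 ± 0.49 and did not pass (limma adjusted p = 0.0717). In 7 of 9 Dex mice it was below the lowest Con mouse. Its SD was 0.68 in Dex, 0.43 in Con and 1.80 in Veh, and the fit pools the spread of all 3 groups. The median log2 intensity of Isg15 was 5.13 in Dex and 6.47 in Veh, and that of Irgm2 was 5.78 in Dex and 7.54 in Veh.

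Of 16 tested macrophage and Kupffer cell markers, 3 fell (18.8%, against 13.8% of all tested genes), 3 had a positive change, and the median was -0.49. At an unadjusted p under 0.05, 4 fell and 0 rose. The scavenger protein Cd5l of Kupffer cells fell by 0.99, the protease Ctss by 0.95 and the mannose receptor Mrc1 by 0.90 (limma adjusted p = 0.0172, 0.0338 and 0.0162). Over 12 defining markers on the array, the summed intensity ran from 643 to 1758 in Dex and from 1022 to 2049 in Con, so the groups overlapped. With whole-liver RNA, fewer cells of a type and less RNA per cell cannot be told apart. The part of these markers in the interferon result was not tested. Cd5l and Ctss did not pass with quantile normalization (adjusted p = 0.0512 and 0.107) or without Dex 1 to 3 (0.0629 and 0.0518), and Ctss passed in 18 of the 27 sets (up to 0.0708 without Dex 5). Without Dex 1 to 3 Cd5l changed by -0.95 and Ctss by -1.11.

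The other immune marker lists gave no calls, but many of their members were not tested. Tests covered 6 of 21 listed markers of T, NK and B cells and 4 of 14 listed neutrophil markers. Of 7 MHC class II genes, 6 markers of T, NK and B cells and 4 neutrophil markers, 0 passed in the limma fit, with medians of -0.05, 0.21 and 0.18, and 1 had an unadjusted p under 0.05. The smallest adjusted p among them was 0.0659, for the antimicrobial peptide gene Camp (0.85). With quantile normalization 1 neutrophil marker passed, which was Camp (adjusted p = 0.0489). Over 7 defining neutrophil markers on the array, the summed intensity ran from 187 to 289 in Dex and from 100 to 220 in Con. Over 6 defining markers of T, NK and B cells it ran from 181 to 536 in Dex and from 196 to 382 in Con. Of 17 endothelial, stellate cell and bile duct markers, 2 rose (11.8%) and 2 fell (11.8%), against 3.1% and 13.8% of all tested genes. The rises were the mucosal peptide Tff3 and the endothelial receptor Eng. The mean of Eng was 9.40 in Dex, 9.68 in Veh and 9.02 in Con. The falls were the endothelial cadherin Cdh5 and the epithelial keratin Krt18. Eng and Cdh5 did not pass with quantile normalization (adjusted p = 0.0739 and 0.21), and each passed in 17 of the 27 sets (up to 0.0836 without Dex 5 and 0.0928 without Dex 4). Eng and Krt18 did not pass without Dex 1 to 3 (0.0501 and 0.26), and Krt18 passed in 21 of the 27 sets (up to 0.0716 without Dex 1). Of 9 markers of pancreas, fat and muscle, 0 passed in the limma fit and 1 had an unadjusted p under 0.05.

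Complement and coagulation proteins are secreted by hepatocytes. Of 26 tested members, 2 rose (7.69%, against 3.1% of all tested genes) and 8 fell (30.8%, against 13.8%), with a median of -0.25 against -0.21. Masp1, a protease of the lectin pathway, ran from 5.04 to 7.49 in Dex (median 6.36) and from 7.32 to 7.93 in Con (median 7.62), and fell by 1.32 ± 0.23 (limma adjusted p = 0.000678). In 8 of 9 Dex mice it was below the lowest Con mouse. Its mean was 6.32 in Dex, 6.83 in Veh and 7.65 in Con.

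Klkb1, plasma prekallikrein, ran from 4.82 to 7.33 in Dex and from 7.51 to 8.0 in Con. Complement C2 ran from 6.74 to 8.07 in Dex and from 8.11 to 9.23 in Con. For both genes the groups did not overlap, and they fell by 1.22 and 0.97 (limma adjusted p = 0.00246 and 0.00172). C1ra, a protease of the first complement component, fell by 0.69 and its second probe set by 0.78, and F13b, a subunit of clotting factor XIII, fell by 0.60 (limma adjusted p = 0.00523, 0.00987 and 0.0105). The rises were Plg and F7, by 0.41 and 0.51, and neither passed with quantile normalization, where 9 members fell, or without Dex 1 to 3 (adjusted p = 0.155 and 0.167). Plg passed in 14 of the 27 sets (up to 0.0935 without Dex 4) and F7 in 10 (up to 0.109 without Dex 2). When Dex 1 to 3 were left out, 4 fell, and F13b did not pass (adjusted p = 0.105).

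**Figure D4:**
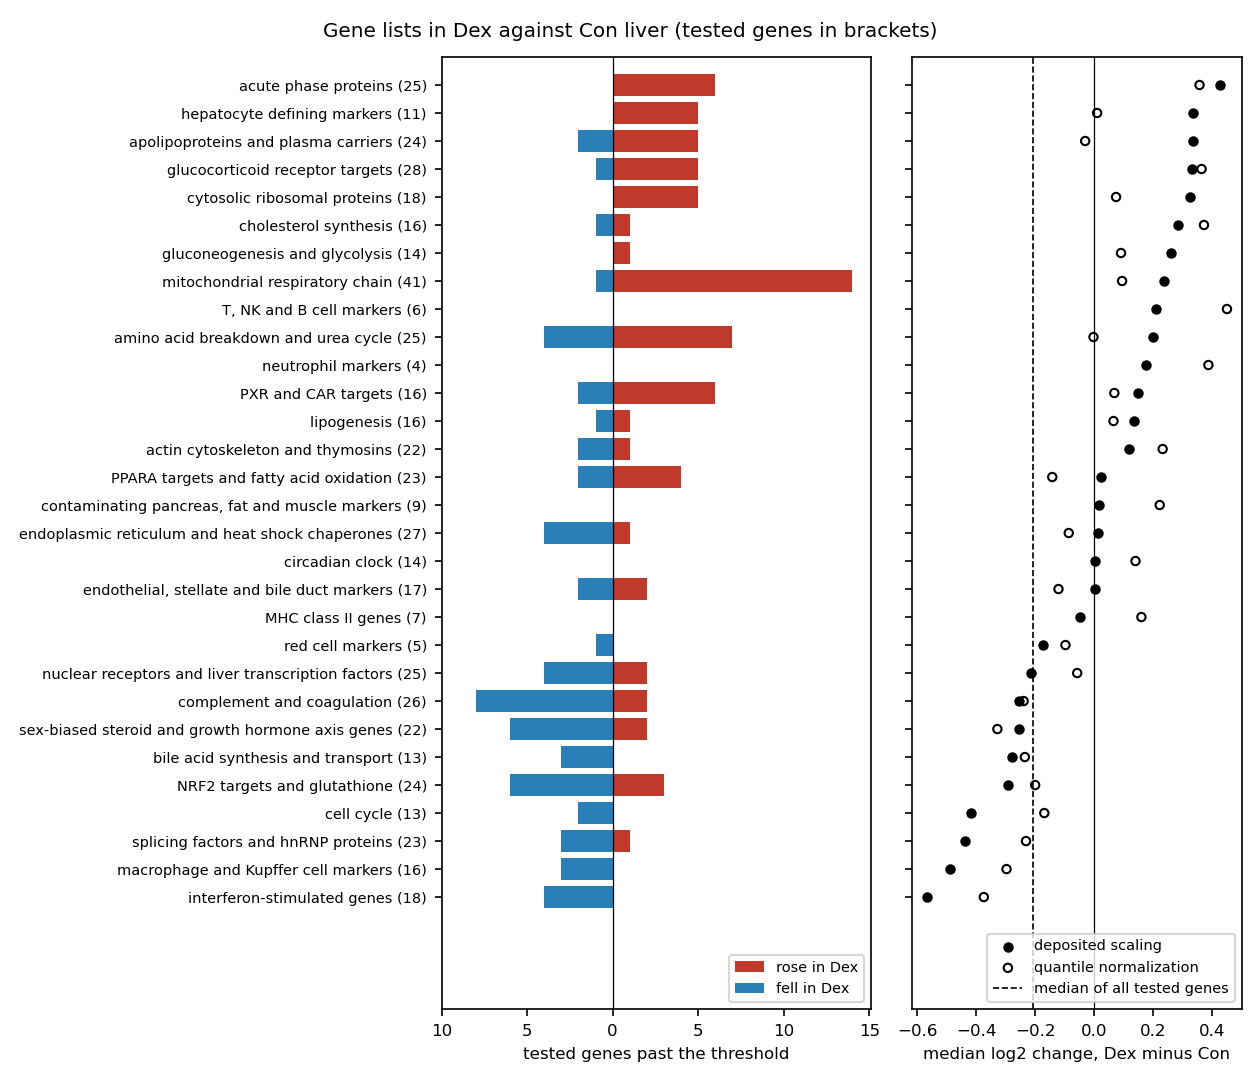
Left, genes of each list that rose or fell past the threshold in Dex against Con. Right, the median log2 change of each list as deposited and with quantile normalization, with the dashed line at -0.207 for all tested genes. Medians run from -0.57 for interferon-stimulated genes to 0.43 for acute phase proteins.

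Glutathione genes changed in both directions. Of 24 tested NRF2 targets and glutathione genes, 3 rose (12.5%, against 3.1% of all) and 6 fell (25%, against 13.8%). The median was -0.29. Gclc, the catalytic subunit of the enzyme that starts glutathione synthesis, ran from 6.67 to 8.22 in Dex (median 7.69) and from 8.15 to 9.68 in Con (median 8.75). It fell by 1.23 ± 0.23 (limma adjusted p = 0.000936), and its partner subunit Gclm fell by 0.74 (limma adjusted p = 0.0302). The carboxylesterase Ces1g fell by 1.57, the thioredoxin reductase Txnrd1 by 0.77, catalase Cat by 0.62 and the microsomal transferase Mgst1 by 0.53. Gclm and Mgst1 did not pass without Dex 1 to 3 (adjusted p = 0.369 and 0.209), and neither did Cat. Gclm passed in 21 of the 27 sets (up to 0.0696 without Dex 2) and Mgst1 in 9 (up to 0.0979 without Dex 2).

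The 3 that rose were glutathione transferases of the mu class. Gstm3 rose by 1.16, Gstm2 by 1.06 and Gstm1 by 0.64 (limma adjusted p = 0.00766, 0.0234 and 0.015). Gstm2 missed the threshold in 1 of the 27 sets (0.0503 without Dex 1). A second probe set of Gstm3 rose by 1.41 (limma adjusted p = 0.00958), whereas that of Gstm1 changed by 0.08 (adjusted p = 0.729). These genes are close in sequence, so 1 transcript may add to several sets. Gstm1 did not pass with quantile normalization (adjusted p = 0.0951) or without Dex 1 to 3 (0.117), and Gstm3 and Txnrd1 did not pass without Dex 1 to 3 (0.0516 and 0.0526). Nfe2l2, the gene of NRF2, fell by 0.59 (limma adjusted p = 0.034), passed in 19 of the 27 sets (up to 0.0787 without Dex 2), and did not pass with quantile normalization (0.152) or without Dex 1 to 3 (0.241).

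Lipid genes moved individually. Elovl2, which lengthens polyunsaturated fatty acids, ran from 5.08 to 8.64 in Dex (median 6.48) and from 8.17 to 9.54 in Con (median 8.82). It fell by 2.27 ± 0.40 (limma adjusted p = 0.000678). Elovl2 also fell in Veh against Con, by 1.71 (limma adjusted p = 0.0196). Elovl6, which lengthens saturated fatty acids made from sugar, ran from 5.35 to 11.42 in Dex and from 5.78 to 7.41 in Con, and rose by 1.59 ± 0.51 (limma adjusted p = 0.0315). Its mean was 8.25 in Dex and 8.35 in Veh. The rise passed in 19 of the 27 sets (up to 0.0654 without Dex 1), and without Dex 1 to 3 it was 2.13 (adjusted p = 0.0104). The second probe set of Elovl6 changed by 1.09 (adjusted p = 0.109). These were the calls among 16 lipogenesis genes, 6.25% each way, against 3.1% higher and 13.8% lower of all tested genes. Fasn, fatty acid synthase, changed by 0.85 (adjusted p = 0.135).

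In cholesterol synthesis 1 of 16 tested genes rose (6.25%, against 3.1% of all tested genes) and 1 fell (6.25%, against 13.8%), with a median of 0.28. Fdps, which makes farnesyl pyrophosphate, rose by 0.98 ± 0.25 and its second probe set by 1.02 (limma adjusted p = 0.00966 and 0.0181). Sc5d, a late sterol desaturase, fell by 1.31 ± 0.39 (limma adjusted p = 0.0238), but its second set changed by -0.69 (adjusted p = 0.224). Sc5d did not pass with quantile normalization (adjusted p = 0.059), without Dex 1 to 3 (0.218) or in 2 of the 27 sets (up to 0.055 without Dex 1). Without Dex 1 to 3, 4 cholesterol genes rose, with a median of 0.57, and with quantile normalization 3 rose.

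Of 13 genes of bile acid synthesis and transport, 3 fell (23.1%, against 13.8% of all tested genes), which were Cyp7b1, Abcc2 and Nr1h4. Nr1h4, the gene of the bile acid receptor FXR, fell by 0.82 ± 0.23 (limma adjusted p = 0.0164) and did not pass without Dex 1 to 3 (adjusted p = 0.135). With quantile normalization 5 fell. Among 25 nuclear receptors and liver transcription factors 2 rose (8%) and 4 fell (16%), against 3.1% and 13.8% of all tested genes. Usf1, a basic helix-loop-helix factor, rose by 0.71 ± 0.16 (limma adjusted p = 0.00509), although its second probe set changed by 0.000186 (adjusted p = 1). The pioneer factor Foxa1 fell by 0.95 (limma adjusted p = 0.0427), passed in 16 of the 27 sets (up to 0.0953 without Dex 2), and did not pass with quantile normalization (0.123) or without Dex 1 to 3 (0.191).

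Abundant housekeeping transcripts were higher in Dex on the deposited scale, and this depended on the scaling. Of 41 tested respiratory chain genes, 14 rose (34.1%, against 3.1% of all) and 1 fell (2.44%, against 13.8%). The median was 0.24. With quantile normalization 2 rose and 1 fell, and the median was 0.09. Ndufb8, a subunit of complex I, ran from 10.38 to 11.01 in Dex and from 9.54 to 10.12 in Con, and Sdhb, a subunit of complex II, from 10.64 to 11.54 in Dex and from 9.98 to 10.64 in Con. They rose by 0.79 ± 0.13 and 0.67 ± 0.12 (limma adjusted p = 0.000356 and 0.000992), and these were the 2 that also passed with quantile normalization. Both also rose in Veh against Con, by 0.73 and 0.59 (limma adjusted p = 0.00304 and 0.00894). Over the list, 8 genes rose in Veh against Con and 0 in Dex against Veh. Sdha, another complex II subunit, fell by 1.03 ± 0.23 (limma adjusted p = 0.00446) and passed under both scalings.

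Of 18 cytosolic ribosomal protein genes, 5 rose (27.8%, against 3.1% of all tested genes), with a median of 0.32. At an unadjusted p under 0.05, 10 rose and 0 fell. Rpl19 rose by 0.66 and Rpl41 by 0.61, and Rpl41 did not pass with quantile normalization (adjusted p = 0.149). With quantile normalization 1 rose, which was Rpl19 (adjusted p = 0.0127), and the median was 0.07. Among 24 apolipoproteins and plasma carriers 5 rose (20.8%) and 2 fell (8.33%), against 3.1% and 13.8% of all tested genes. With quantile normalization 1 rose and 2 fell. Apoc4 rose by 0.58 under the deposited scaling and passed under both (limma adjusted p = 0.00216, and 0.0345 with quantile normalization). Its mean was 12.28 in Dex and 12.27 in Veh. Alb changed most in standing, with a rise of 0.61 as deposited (limma adjusted p = 0.0276) and an adjusted p of 0.922 with quantile normalization. It passed in 20 of the 27 sets (up to 0.0602 without Dex 1) and did not pass without Dex 1 to 3 (0.19). Of 11 hepatocyte defining markers, 5 rose as deposited (45.5%, against 3.1% of all tested genes). With quantile normalization 2 of these markers rose and 1 fell.

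Chaperones and RNA-binding genes were called at shares near those of all tested genes, 3.1% higher and 13.8% lower. Of 27 tested chaperones of the endoplasmic reticulum and heat shock response, 1 rose (3.7%) and 4 fell (14.8%). Hsp90aa1, the inducible cytosolic chaperone, rose by 1.38 ± 0.43 (limma adjusted p = 0.0267), while Dnajb9, Pdia3 and Dnajb11 of the endoplasmic reticulum fell by 1.57, 1.17 and 0.62 and the transcription factor Xbp1 by 0.92. Without Dex 1 to 3 Hsp90aa1 (1.06, adjusted p = 0.148), Dnajb9 (0.0629), Pdia3 (0.24) and Dnajb11 (0.0629) did not pass, and Dnajb11 did not pass with quantile normalization (0.169). Leaving out 1 array ended the call of Hsp90aa1 in 5 sets (up to 0.0627 without Dex 2), of Pdia3 in 3 (0.0661 without Dex 1), of Dnajb11 in 6 (0.0783 without Dex 1) and of Xbp1 in 10 (0.087 without Dex 1).

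Of 23 splicing factor and hnRNP genes, 1 rose (4.35%) and 3 fell (13%, against 13.8% of all tested genes). The median was -0.44 against -0.21 for all tested genes, and 18 of 23 had a negative change. At an unadjusted p under 0.05 in the limma fit, 11 fell and 2 rose. Srsf5, an SR splicing factor, fell by 1.10 ± 0.25, Hnrnpk by 1.04 ± 0.26 and Hnrnpa2b1 by 0.68 ± 0.19 (limma adjusted p = 0.00455, 0.0082 and 0.0138), and each passed with quantile normalization. Hnrnpa2b1 did not pass without Dex 1 to 3 (adjusted p = 0.0771). Of 14 clock genes 0 passed in the limma fit and 0 had an unadjusted p under 0.05, and the smallest adjusted p among them was 0.189, for Bhlhe40 (-0.51). Of 13 cell cycle genes 2 fell (15.4%, near the 13.8% of all tested genes), the cyclins Ccnd1 and Ccnb2, by 1.08 and 0.81, and neither passed with quantile normalization (adjusted p = 0.0954 and 0.0843). Ccnd1 did not pass without Dex 1 to 3 (0.0704) and passed in 19 of the 27 sets (up to 0.081 without Con 8), and Ccnb2 passed in 25 (up to 0.0522 without Con 7). Of 22 actin and thymosin genes 1 rose (4.55%), S100a10, and 2 fell (9.09%), Lcp1 and Arpc2, against 3.1% and 13.8% of all tested genes. These 3 did not pass without Dex 1 to 3 (adjusted p = 0.0837, 0.0572 and 0.0652). Of 14 genes of glucose synthesis and breakdown 1 rose (7.14%, against 3.1% of all tested genes), Igfbp1.

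Some single genes, most of them outside these groups, changed strongly. Sult1d1, a sulfotransferase of amines, ran from 5.74 to 9.17 in Dex (median 8.04) and from 4.94 to 6.27 in Con (median 5.79), and 8 of 9 Dex mice were above the highest Con mouse. It rose by 2.33 ± 0.34 (limma adjusted p = 0.000198). Tff3, a secreted trefoil peptide of mucous cells, rose by 2.63 ± 0.76 (limma adjusted p = 0.0187), with 4.79 to 10.47 in Dex and 3.35 to 8.29 in Con. It was above the array median in 9 of 9 Dex arrays and 3 of 9 Con arrays. Tff3 is also on the list of endothelial, stellate cell and bile duct markers.

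The immunoglobulin gene Ighg3 rose by 1.46 at low levels, with means of 4.88 ± 0.42 in Dex and 3.43 ± 0.94 in Con (SD, n = 9 each), and did not pass without Dex 1 to 3 (adjusted p = 0.0837). It was above the array median in 7 of 9 Dex arrays and 0 of 9 Con arrays, and 1 Con mouse was at the floor. The size of this rise therefore rests on weak Con signals.

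Among the largest falls were hormone and haem enzymes. Dio1, the deiodinase that activates thyroid hormone, ran from the floor of 1.38 to 6.95 in Dex (median 4.40) and from 4.91 to 8.42 in Con (median 6.74). It fell by 2.37 ± 0.71 (limma adjusted p = 0.0239), and did not pass with quantile normalization (adjusted p = 0.0653), without Dex 1 to 3 (0.138) or without Dex 4 (0.0525). Alas2, the haem synthesis enzyme of red cell precursors, ran from 3.31 to 9.66 in Dex and from 8.97 to 9.88 in Con, and fell by 1.97 ± 0.56 (limma adjusted p = 0.0178). It did not pass without Dex 1 to 3 (adjusted p = 0.0857). Over the 2 defining red cell markers, Alas2 and the globin gene Hba-a1, the summed intensity was 2649 to 10070 in Dex and 2753 to 5619 in Con, and Hba-a1 itself changed by 0.57 (adjusted p = 0.0662).

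Slc22a30, a member of the organic anion transporter family, ran from 6.21 to 8.46 in Dex (median 7.22) and from 8.85 to 9.85 in Con (median 9.12), without overlap, and fell by 1.88 ± 0.29 (limma adjusted p = 0.000237). Slc22a30 also fell in Veh against Con, by 1.35 (limma adjusted p = 0.0097). Further large falls were those of the chromosome condensation regulator gene Rcc2 (-1.96), Smarca2 of the SWI/SNF chromatin complexes (-1.83), Nrep (-1.83), the defensin Defa35 (-1.79), the actin-severing Cfl2 (-1.78), the genome organiser Ctcf (-1.67) and the replication factor Mcm10 (-1.65). Rcc2, Smarca2, Defa35, Cfl2 and Ctcf had Dex means under 5 on the log2 scale, where signals are weak. Nrep, Defa35 and Ctcf did not pass without Dex 1 to 3 (adjusted p = 0.0935, 0.0598 and 0.109), and Ctcf did not pass with quantile normalization (0.0718) or in 10 of the 27 sets (up to 0.0708 without Dex 2).

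The groups did not overlap for 12 genes that were higher in Dex (0.231% of 5200) and 35 that were lower (0.673%). The higher ones included the metabolic genes Fh1, Ndufb8, Sdhb and Ndufb11, of the citric acid cycle and respiratory chain, with Cyp2b9, Cyp2b10, Cyp2c38 and Orm3. The lower ones included the sterol and drug transporters Abca1 and Abcg2 (-1.17 and -1.57), the adhesion molecule Cdh2 (-1.53), the arginine methyltransferase Prmt1 (-1.63) and the proteasome activator Psme4 (-1.18). Of the 35 lower ones, 2 missed the threshold, which were Egfr and 2610301B20Rik.

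The number of calls changed with the arrays included. Leaving out several mice also leaves smaller groups, so the number of arrays and the choice of mice cannot be told apart. Without Dex 1 to 3, 405 probe sets were called, 89 higher and 316 lower, and 369 of them were among the 1115. When mice 1 to 3 of every group were left out, 37 were called, 19 higher and 18 lower, with 1243 at an unadjusted p under 0.05. Leaving out any 1 of the 27 arrays gave between 785 calls (without Dex 1) and 1488 (without Dex 8), and 646 probe sets were called in all 27 such sets. Of 104 called genes named by the rule, 73 passed with quantile normalization and 45 without Dex 1 to 3, and 71 passed in all 27 sets. In 18 of the 104 the group with the lower level had a mean under 5 on the log2 scale, close enough to the floor that the size of the change rests on weak signals.

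**Figure D5:**
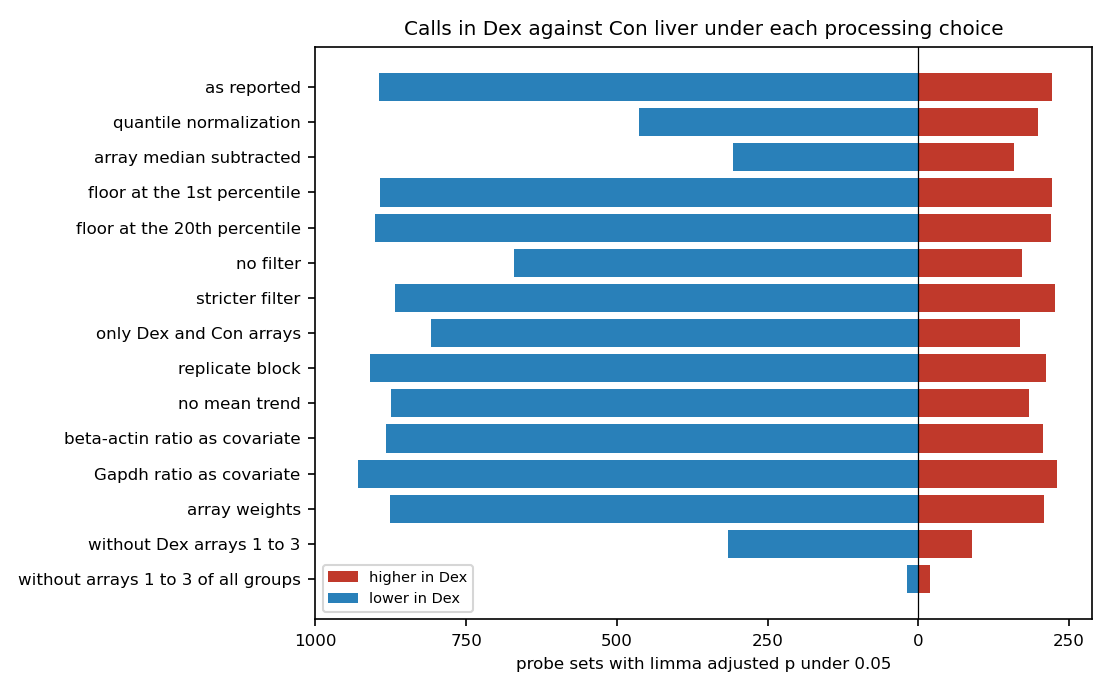
Probe sets called higher (red) and lower (blue) in Dex than in Con under each processing choice. The counts run from 37 without mice 1 to 3 of all groups to 1160 with the Gapdh ratio as a covariate, and 1115 are as reported.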

How the data were processed

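The authors deposited 1 linear intensity per probe set and array. Per the labels, RNA was isolated by Trizol followed by an RNeasy kit, and 1 liver went on each Affymetrix array. The deposited intensities had trimmed means of 100.1 to 100.2 on all 27 arrays, so they were already scaled. The software behind these intensities was not stated in the sources used here.

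Intensities under 2.6, the 10th percentile of positive values, were set to 2.6, and log2 was taken. Of 12422 non-control probe sets, the 6784 above their array's median in at least 9 of 27 arrays were tested. Of these, the probe set with the highest mean stood for each gene with a single symbol. Group means over 27 arrays were fitted with limma 3.58.1 in R 4.3.3 (eBayes with a mean trend, two-sided, 24 residual degrees of freedom, Benjamini-Hochberg over 6784 probe sets, threshold 0.05). Changes are Dex minus Con, with standard errors of the fit. The code was tested on simulated data. Array quality was compared with exact permutation tests over 48620 splits. Precision is limited by the 9 arrays per group and by weak signals near the floor.

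The comparison, the 30 gene lists (811 genes, 513 tested) and the rule for named genes were chosen with earlier results of these data known. Lists share members, and are described by counts and medians, without a test. The rule named the 15 largest rises and 15 largest falls, up to 5 called members of each list (at least 3 members in all), 21 preset genes such as Tat, and the 5 largest changes each way that missed the threshold. Other genes named in the text, such as Glud1, Gclm, Plg and those without overlap, were chosen after their values were seen. Tsc22d3 and Gapdh had no tested probe set with a single symbol. Alternatives were quantile normalization, median subtraction, other floors and filters, only the Dex and Con arrays, the replicate block, no mean trend, control probe ratios as covariates, array weights, arrays left out, and medians in the quality test. Quantile normalization combined with other choices was added after the data were seen.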

Additional observations from a re-analysis of the deposited data

Results flagged for a closer look

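In 280 groups of 9 mice (140 named genes, Dex and Con), 17 single values stood far from the other 8 by Dixon's criterion. Chance meets it in about 1 of 20 groups, so this number is near what chance gives. All values are log2 intensities. In Dex, the low values were Egfr at 3 in Dex 1, Lcp1, a leukocyte actin bundler, at 5.34 in Dex 1, Ccnb2 at 3.609 in Dex 4, Abcc2 at 4.24 in Dex 5, Mcm7 at 2.722 in Dex 7, Pgk1 at 9.756 in Dex 8 and Camp at 4.728 in Dex 9. Ndufb8 was high at 11.01 in Dex 2.

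In Con, the high values were Cyp4a10 at 7.105 and Ckm at 6.2, both in Con 9. The low values in Con were H2-Ab1 at 3.667 and Iglc1 at 2.379 in Con 1, Gatm at 5.198 in Con 2, Tsc22d1 at 6.287 and Tpi1 at 10.19 in Con 3, Cd79b at 2.293 in Con 7 and Hsd3b6 at 5.278 in Con 9. Without Con 9 or any other single array, Cyp4a10 and Hsd3b6 passed the test in all 27 sets.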

How the results depend on the processing

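Against 1115 calls (221 higher, 894 lower), quantile normalization gave 662 (464 lower), median subtraction 465 (307 lower), leaving out Dex 1 to 3 405 (89 and 316) and leaving out mice 1 to 3 of all groups 37 (19 and 18). Quantile normalization with only the Dex and Con arrays gave 480 (130 and 350) and without Dex 1 to 3 280 (84 and 196). The causes were not tested. Fitting only the Dex and Con arrays gave 977, the floors 1114 and 1121, no filter 842, the stricter filter 1095, no mean trend 1058, the beta-actin and Gapdh ratios 1089 and 1160, and array weights 1084. Leaving out 1 array gave 785 to 1488 calls, 158 to 291 higher and 627 to 1197 lower.

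Replicate numbers did not pair the mice: same-numbered Dex and Con arrays had deviations correlated from -0.179 to 0.187, over 0.1 in 1 of 9 pairs, and 2 of 9 Dex arrays correlated best with their own number. A replicate block gave 1120 calls (211 higher, 909 lower).

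The direction of a named gene turned in these cases. Serpina1c and Actb were at -0.0505 and -0.147 with quantile normalization, also with only the Dex and Con arrays, and Actb was at -0.0342 with array weights. With the Gapdh ratio, Actb was at -0.0819 and H2-Ab1 at -0.00234. Without Dex 1 to 3, Fkbp5 was at -0.0336, and with quantile normalization as well Tdo2 was at -0.0106, Alb -0.00865, Serpina1c -0.029, H2-Eb1 0.175, Ly6g 0.178, Slc4a1 0.0824 and Nr1d1 0.0656. Without mice 1 to 3 of all groups, H2-Ab1 was at -0.107, Lep -0.00523, Slc4a1 0.162, Nr1d1 0.0591 and Dbp 1.04. With 1 array left out, Actb ran from -0.197 to 0.269 and H2-Ab1 from -0.0756 to 0.302. No array quality result changed side with medians.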

Other observations

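In several genes that did not pass the test, low or high levels fell on consecutive mouse numbers. Dbp, a clock-controlled transcription factor, was at log2 intensities of 1.38, 1.38 and 1.54 in Dex 1 to 3, at 4.01 to 7.92 in the other Dex mice, at 1.38, 1.38 and 1.77 in Con 4 to 6 and at 7.10 to 8.62 in the other Con mice. Its change did not pass (-1.62, limma adjusted p = 0.329). Mt1 was at 12.89 to 14.43 in Dex 1 to 3 and at 3.97 to 5.55 in Con 4 to 6, with Con 8 at 4.85. In Con 4 to 6 Mt2 was at 6.78 to 6.91, with Con 8 at 6.96, and Pck1 at 7.61 to 8.39. Pck1 was at 9.41 or more in the other Con mice. Over the clock genes, Con 4 to 6 had the lowest Con means, at -0.424, -0.95 and -0.624 from the group mean. Over the glucocorticoid receptor targets they were lowest as well, at -0.32, -0.564 and -0.458. This pattern was seen after the values were known. The labels give no time of day or day of collection, and the pattern was not tested.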
